A study of Homo sapiens with 18 samples.

Results

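The response to cytarabine was examined in U2OS cells that overexpress mutant DNMT3A, as the difference between 3 treated and 3 untreated libraries of that line over all genes of the count table. These are 6 of the 18 libraries of the series, chosen by their sample labels alone and not by any measured value. U2OS is an established human osteosarcoma line. The series compared 3 derived lines, carrying mutant DNMT3A, wild-type DNMT3A or the empty vector MigR1, a retroviral vector. Of each line there were 3 untreated libraries and 3 from cells given 10 µM cytarabine for 24 h, labelled biological triplicates. The series text names the mutation R882C while the sample labels give R882H, and the series text speaks of a vehicle control where the labels say untreated. There is 1 line for each construct, so the construct cannot be told apart from other differences between the lines, and the cells still hold their own DNMT3A gene. Because each library is a bulk of cells, fewer cells of a type and less RNA per cell cannot be told apart.

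Cytarabine is a deoxycytidine analogue used against acute myeloid leukemia. It enters cells through nucleoside transporters, is phosphorylated first by deoxycytidine kinase, and is then built into DNA, where it stalls replication forks and activates the checkpoint kinases and p53. DNMT3A is a de novo DNA methyltransferase whose hotspot arginine in the catalytic domain is often altered in the same leukemia, and U2OS cells retain functional p53.

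The 3 untreated libraries held 21.4, 18.03 and 20.3 M estimated counts and the 3 treated ones 21.4, 19.4 and 21.6 M. Levels are given as CPM, counts per M counts of the scaled library, in the order of replicates 1, 2 and 3. DNMT3A, the transgene checked first, stood at 499.7, 615.0 and 253.6 CPM untreated and at 531.9, 514.6 and 525.2 CPM after cytarabine, with transgene and own transcripts not separated. The groups overlapped, and the log2 fold change of 0.19 (SE 0.26) had an edgeR adjusted p of 0.57. In the wild-type line DNMT3A was lower, at 131.2, 129.4 and 139.1 CPM untreated and 182.1, 166.4 and 180.6 CPM treated. With the empty vector it stood at 26.9, 27.5 and 26.2 CPM untreated and 47.1, 49.6 and 45.5 CPM treated. The untreated replicates of the mutant line stood apart from each other. The biological coefficient of variation within them was 21.4%, against 6.91% in the treated mutant libraries and 3.96% in the untreated libraries of each other line. In the treated libraries of the other lines it was 13.1% (empty vector) and 4.85% (wild type). Between untreated mutant replicates 2 and 3, 10.7% of the tested genes differed by more than 1 on the log2 scale, against 2.46% to 3.21% in the treated mutant pairs. Mesenchymal markers summed to 3508 to 4143 CPM untreated and 2666 to 2972 CPM treated, with 3 of 9 tested genes higher and 2 lower. SPARC, VIM and RUNX2 were present, and TWIST1 has no value in the table. Epithelial (7 listed, 19.3 to 23.9 CPM untreated, 26.7 to 36.9 treated), endothelial (5 listed, 3.54 to 4.91 and 10.1 to 12.6), neural (5 listed, 4.28 to 5.57 and 7.33 to 9.97) and blood markers (8 listed, 1.09 to 2.26 and 2.24 to 2.54) stayed low. Of these lists 3, 3, 2 and 0 genes passed as higher after cytarabine, and their part in the results was not tested.

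After 24 h with cytarabine, 4286 of 17019 tested genes were higher (25.2%) and 3690 were lower (21.7%) in the mutant line, 46.9% in all, at an edgeR adjusted p under 0.05. The median over the tested genes was 0.03 on the log2 scale. The balance turned with the authors' factors (3699 higher, 4268 lower), with DESeq2 (3840 and 4152) and with the length trend removed (3727 and 4219). The larger changes were mostly increases, since 1952 genes rose by at least 1 on the log2 scale (11.5%) and 531 fell by as much (3.12%). The direction of these larger changes went with the level of expression. Among 3340 genes averaging under 1 in log2 CPM, 858 rose and 105 fell by at least 1. At an average of 5 log2 CPM or more, the corresponding numbers were 110 and 212 of 6718 genes. The 2 groups did not overlap at 58.3% of the tested genes, and at 7862 of the 7976 called genes. When each library was left out in turn, 5038 called genes (63.2%) were called in the same direction in every fit, 2734 higher and 2304 lower.

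**Figure D1:**
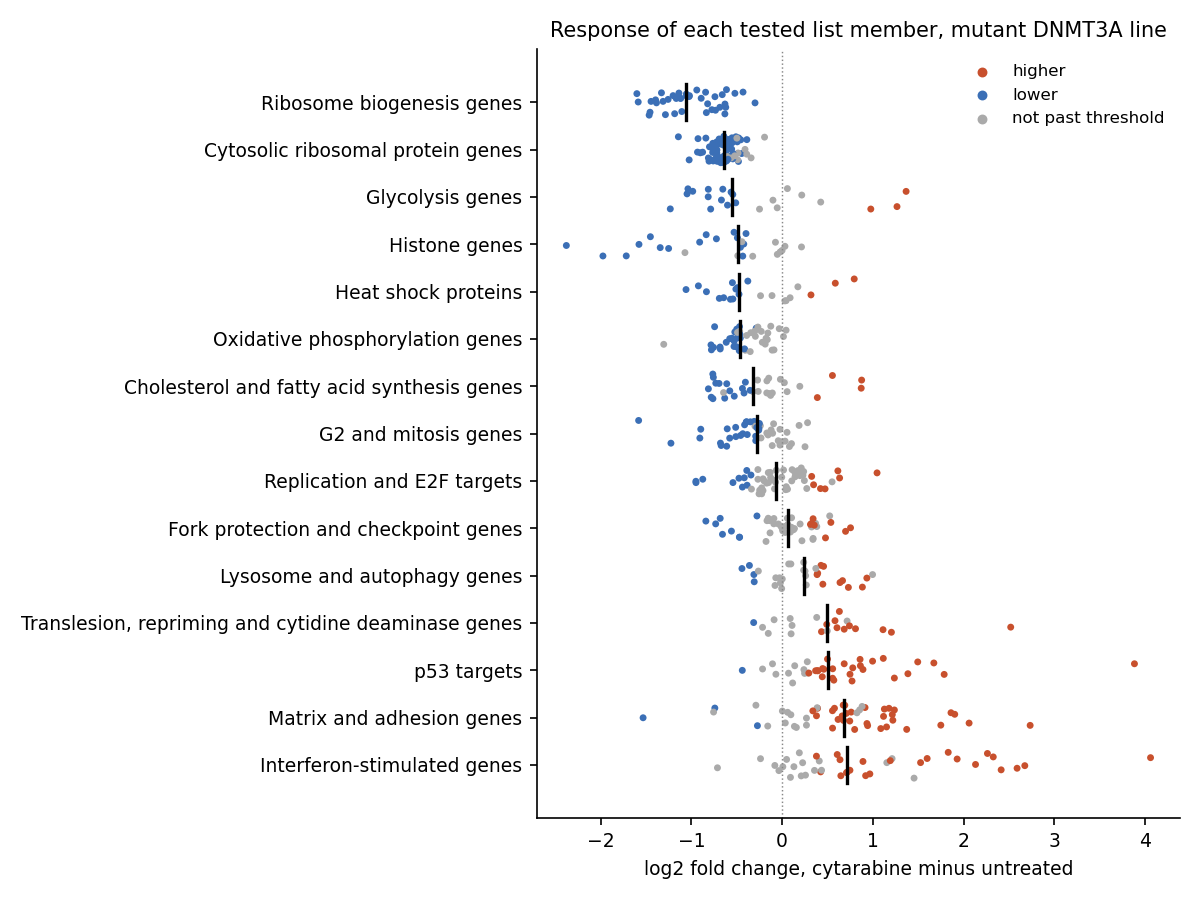
Log2 fold change (cytarabine minus untreated, horizontal axis) of every tested member of 15 gene lists in the mutant line. Each point is a gene and the black bar is the list median. All 40 ribosome biogenesis genes lie below 0 with a median of -1.05, while the interferon-stimulated list has the highest median of those drawn, 0.71.

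Among genes averaging 3 log2 CPM or more, the largest rise was in GDF15, a secreted stress cytokine and p53 target (chromosome 19, 18374731 to 18389177, plus strand). Its level was 27.1, 16.9 and 29.0 CPM untreated and 370.1, 340.5 and 374.3 CPM treated, a log2 fold change of 3.88 (SE 0.19, edgeR adjusted p 1.7e-05). Every treated library lay far above the untreated ones, of which replicate 2 was the lowest. PPP1R16B, a regulatory subunit of protein phosphatase 1, went from 4.46, 4.65 and 2.11 CPM to 41.9, 39.6 and 36.5 CPM. SLC16A12, a monocarboxylate transporter family member (chromosome 10, 89430299 to 89556642, minus strand), went from 2.31, 2.20 and 2.91 CPM to 25.05, 26.4 and 25.2 CPM, 3.36 on the log2 scale. The receptor NOTCH3 (chromosome 19, 15159038 to 15200982, minus strand) went from 16.4, 17.2 and 9.94 CPM to 107.3, 88.0 and 99.4 CPM, a log2 fold change of 2.75 (SE 0.19, edgeR adjusted p 4.2e-05). In these 3 genes the groups were far apart, and untreated replicate 3 was the lowest library for PPP1R16B and NOTCH3. The other large rises spanned unlike functions. They were the ferroxidase-like HEPHL1 (3.07), the interleukin subunit EBI3 (3.05), TCEAL2 (2.92), the actin-like ACTBL2 (2.91), the hemidesmosome collagen COL17A1 (2.74), CSMD3 (2.72), the sodium channel subunit SCN4B (2.65) and the axon guidance protein DRAXIN (2.58).

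The largest falls included histone genes, FJX1, TRAF1 and ODC1. HIST1H2BK, which encodes an H2B histone (chromosome 6, 27146418 to 27146799, minus strand), went from 43.4, 44.03 and 36.0 CPM to 8.30, 8.38 and 7.15 CPM, and FJX1, a relative of the Drosophila four-jointed kinase (chromosome 11, 35618419 to 35620869, plus strand), from 106.9, 101.9 and 113.6 CPM to 22.8, 23.9 and 24.7 CPM. These were log2 fold changes of -2.38 (SE 0.13) and -2.18 (SE 0.09), with edgeR adjusted p of 2.5e-05 and 1.1e-05. ODC1, the rate-limiting enzyme of polyamine synthesis (chromosome 2, 10439968 to 10448505, minus strand), went from 847.7, 1032 and 1029 CPM to 243.1, 285.6 and 268.7 CPM and fell by 1.87 on the log2 scale. EIF5A, the translation factor that carries a modification made from the polyamine spermidine, fell by 1.71, and its near copy EIF5AL1, whose reads cannot be separated from it with certainty, by 1.69. The cold-inducible RNA-binding protein RBM3 fell by 1.71, the metallothionein MT1X by 1.68 and the mitochondrial ribosomal protein MRPL54 by 1.68. No treated library reached the level of an untreated one in HIST1H2BK, FJX1 or ODC1.

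**Figure D2:**
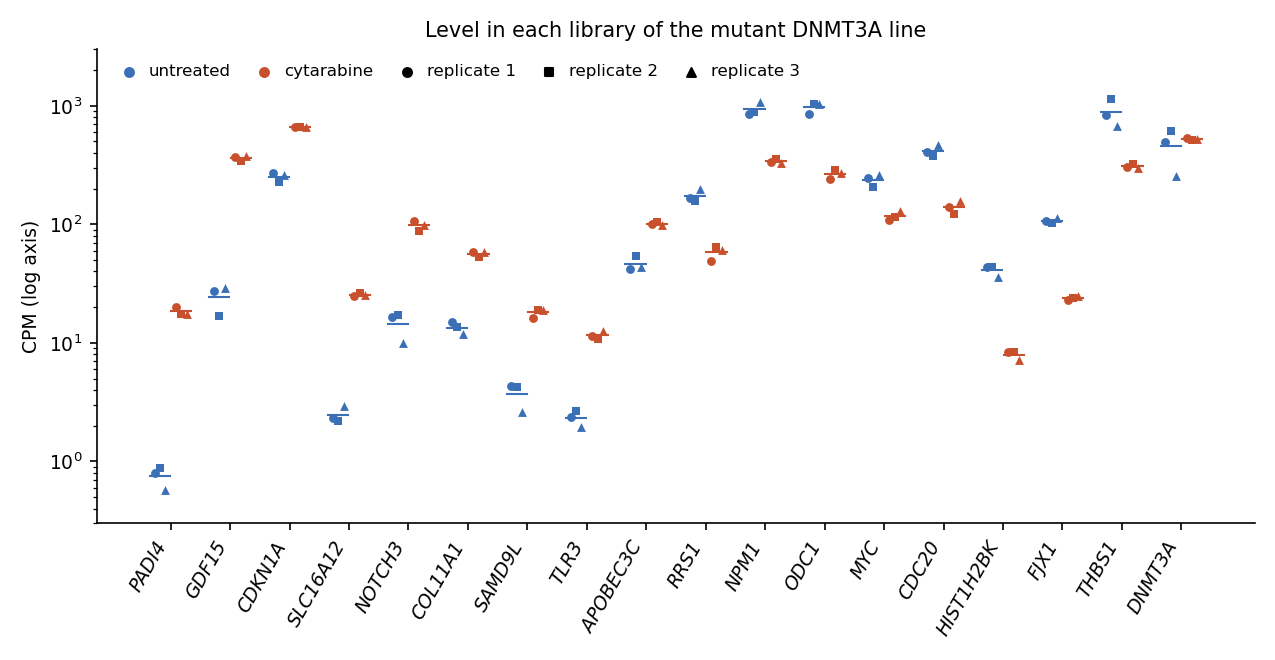
CPM (log axis) of 18 genes in each of the 6 libraries of the mutant line, untreated in blue and cytarabine in red, with marker shapes for replicates 1 to 3 and a bar at the group mean. The groups are apart for every gene drawn except DNMT3A, whose untreated libraries run from 253.6 to 615.0 CPM.

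Genes for making ribosomes fell as a block in the mutant line. Of 40 tested genes for nucleolar processing and RNA polymerase I, 40 were lower and none higher, with a median of -1.05 against 0.03 over all tested genes, and 23 fell by at least 1. NPM1, the nucleolar chaperone nucleophosmin (chromosome 5, 171387116 to 171411138, plus strand), stood at 851.8, 889.3 and 1067 CPM untreated and 337.3, 357.2 and 326.3 CPM treated, a log2 fold change of -1.47 (SE 0.11, edgeR adjusted p 5.1e-05). The ribosome assembly factor RRS1 went from 166.1, 156.4 and 197.0 CPM to 49.0, 64.1 and 60.7 CPM, and the U3 particle protein RRP9 from 86.5, 93.0 and 111.0 CPM to 29.6, 33.2 and 33.4 CPM, the largest fall of the list at -1.601. In all 3 genes the treated libraries lay well under the untreated ones. FBL, the methyltransferase of box C/D snoRNPs, fell by 1.12 and nucleolin, NCL, by 1.18. The smallest falls were in the polymerase itself and its factors, UBTF at -0.30, RRN3 at -0.43 and POLR1A at -0.52. Leaving out single libraries gave 37 to 40 lower genes, and the genes lost were among these 3. POLR1A lost its call in all leave-outs but that of untreated replicate 3, where it was -0.71.

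MYC, a transcription factor known to drive ribosome biogenesis, went from 245.7, 206.9 and 261.1 CPM to 108.4, 116.0 and 130.4 CPM. It fell by 1.01 on the log2 scale (SE 0.12, edgeR adjusted p 0.00025), and the groups did not overlap. The E-box CACGTG, which MYC can bind, was looked for in promoters of 300 bases, 250 before to 50 after the RefSeq start (GRCh38.p14). It was present in 10 of 33 ribosome biogenesis promoters (30.3%), in 9.92% of those of the tested genes and in 7.43% of all promoters. Of the promoters of tested genes called lower 11.9% held it. Among ribosomal protein promoters it was present in 3 of 60 (5%). Such a match is a string of letters and not evidence of binding.

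The protein components of the cytosolic ribosome were lower too, by less. Of 74 tested genes, 64 fell and none rose, with a median of -0.64. RPL24 went from 347.2, 416.8 and 413.2 CPM to 212.5, 182.2 and 185.9 CPM and fell by 1.02, while RPS27 stood at 93.4, 76.6 and 125.1 CPM untreated and 82.1, 83.8 and 93.3 CPM treated, with overlapping groups. The list mean in log2 CPM was 9.14, 9.20 and 9.52 untreated and 8.71, 8.61 and 8.66 treated, so untreated replicate 3 was the highest library. Without it 67 genes were lower with a median of -0.54, and single leave-outs gave 48 to 73. These genes are short and abundant, and reads from their many processed pseudogenes cannot be assigned with certainty. The processed pseudogenes themselves had 277 lower and 28 higher genes of 866 tested, with a median of -0.73.

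The p53 targets were mostly higher. Of 37 tested targets 26 rose and 1 fell, with a median of 0.50, and single leave-outs gave 20 to 28 higher genes. CDKN1A, the cyclin-dependent kinase inhibitor p21 (chromosome 6, 36676460 to 36687340, plus strand), went from 268.4, 229.4 and 259.7 CPM to 660.5, 666.0 and 663.2 CPM, a log2 fold change of 1.39 (SE 0.10, edgeR adjusted p 4.2e-05). The treated values lay close together and well above the untreated ones. MDM2, which ubiquitinates p53, went from 174.3, 161.6 and 222.4 CPM to 298.0, 348.7 and 315.0 CPM and rose by 0.78. Of 16 targets for arrest and feedback 11 rose, among them TP53INP1 (1.67) and CCNG2 (1.24), and the fall was in PLK2 (-0.44). Of 11 targets for repair and other functions 10 rose, among them the KIT ligand KITLG (1.79), the ceramidase ACER2 (1.495) and the p53-inducible ribonucleotide reductase subunit RRM2B, which went from 183.9, 162.9 and 169.0 CPM to 382.4, 379.1 and 361.0 CPM. Among the 10 apoptosis targets the count was 5, with FAS, the death receptor, at 0.86. Without treated replicate 1, 2 or 3 that count was 3, 2 and 2 respectively, and without untreated replicate 2 it was 3. BAX, the mitochondrial pore former, stood at 215.1, 154.5 and 269.9 CPM untreated and 184.5, 194.1 and 218.2 CPM treated, with groups that overlapped. BBC3 (PUMA) gave 0.07 and PMAIP1 (NOXA) 0.25, neither past the threshold.

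Interferon-stimulated genes rose in part, and none passed as lower. Of 55 listed genes 49 were in the table and 41 were tested, with 23 higher, none lower and a median of 0.71. Most of them were scarce transcripts, with a list mean of 2.38, 2.39 and 2.46 log2 CPM untreated and 3.31, 3.31 and 3.33 treated. The promoters of 3 genes that rose are shown because they hold the core of the interferon-stimulated response element, searched on both strands as GAAA, any 2 bases and GAAA again, within windows wholly upstream of the RefSeq start. Capitals mark the matches, which overlap in BST2, and each line reads 5′ to 3′ on the gene's strand (GRCh38.p14, RefSeq).
IFIT1, chr10:89392482-89392541, plus strand: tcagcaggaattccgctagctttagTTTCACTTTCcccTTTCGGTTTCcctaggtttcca
BST2, chr19:17405726-17405785, minus strand: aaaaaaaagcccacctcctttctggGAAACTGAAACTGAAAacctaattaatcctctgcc
SAMD9, chr7:93118081-93118140, minus strand: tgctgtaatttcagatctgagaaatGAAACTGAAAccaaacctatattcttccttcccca
The core was present in 19 of the 30 listed genes with a promoter in the table (63.3%), against 2.64% of the promoters of tested genes and 3.65% of all promoters. Among the listed genes that rose it was in 12 of 18 (66.7%), and it was also in promoters of listed genes that did not pass, ISG15 and MX1 among them. Of the promoters of all tested genes called higher 2.76% held the core, near the 2.64% of tested genes. The high share thus describes the list, and a link with the response was not tested.

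Among the nucleic acid sensors, TLR3, which recognises double-stranded RNA in endosomes (chromosome 4, 186069152 to 186088070, plus strand), went from 2.36, 2.64 and 1.94 CPM to 11.5, 10.9 and 12.6 CPM. It rose by 2.33 on the log2 scale (SE 0.18, edgeR adjusted p 5.1e-05), and the groups did not overlap. TMEM173, the adaptor STING, rose by 0.92, and the RNA helicase IFIH1 by 0.42. DDX58 (RIG-I) gave 0.21 and CGAS 0.23, neither past the threshold. Of the 28 effectors 18 rose. SAMD9L, an antiviral and growth-restraining protein (chromosome 7, 93130055 to 93148370, minus strand), went from 4.36, 4.21 and 2.63 CPM to 16.3, 18.9 and 19.0 CPM, and its neighbour SAMD9 from 25.4, 30.1 and 21.4 CPM to 61.4, 60.4 and 54.6 CPM. Their log2 fold changes were 2.26 and 1.19. BST2, the tether of budding virions, went from 0.602, 0.377 and 1.26 CPM to 5.54, 3.35 and 4.75 CPM and rose by 2.59. IFIT1, which binds uncapped viral RNA, went from 0.401, 1.13 and 1.37 CPM to 3.16, 2.54 and 2.61 CPM and rose by 1.53. OAS1 rose by 1.83 and GBP2 by 1.599. Of the 7 transducers 2 rose, among them STAT2 (0.97). ISG15 and MX1 did not pass either. IFIH1 lost its call in 4 of the 6 leave-outs and IFIT1 in 1. The count of higher genes ran from 19 to 24 over the leave-outs, and 2 transducers passed as lower without untreated replicate 2.

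Many mitotic genes were lower, as were many abundant genes of any kind. Of 46 tested genes 25 were lower (54.3%) and none higher, with a median of -0.28. Over all tested genes 21.7% were lower. The list averaged 6.85, 6.82 and 6.87 log2 CPM untreated. In the most abundant of 5 equal bins of genes averaging at least 1 log2 CPM, 48.8% were lower, with a median of -0.30. CDC20, the mitotic activator of the anaphase-promoting complex (chromosome 1, 43358955 to 43363204, plus strand), went from 409.1, 377.1 and 464.3 CPM to 139.9, 123.0 and 156.6 CPM, a log2 fold change of -1.58 (SE 0.12, edgeR adjusted p 5.6e-05). PLK1, the kinase of mitotic entry, went from 176.3, 162.1 and 171.4 CPM to 72.2, 70.0 and 76.8 CPM and fell by 1.23. The groups were apart in both genes. The mitotic cyclin CCNB1 went from 348.2, 356.1 and 361.1 CPM to 199.1, 184.1 and 191.3 CPM, and the kinesin KIF20A from 99.5, 95.6 and 85.3 CPM to 48.6, 46.9 and 54.7 CPM. Their log2 fold changes were -0.90 and -0.91. AURKA fell by 0.68, BIRC5 (survivin) by 0.67 and CCNA2 by 0.61. CDK1 (0.28) and TOP2A (0.25) did not pass the threshold. The count rested on small changes, since without treated replicate 1, 2 or 3 it was 14, 13 and 14, while the median stayed between -0.34 and -0.26 over the leave-outs.

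Promoters of 3 mitotic genes that fell are shown because they hold the CHR element, the site through which the DREAM complex represses cell cycle genes, searched as TTTGAA or TTTAAA on both strands. The windows lie wholly upstream of the RefSeq start, capitals mark the match, and each line reads 5′ to 3′ on the gene's strand (GRCh38.p14, RefSeq).
CDC20, chr1:43358778-43358833, plus strand: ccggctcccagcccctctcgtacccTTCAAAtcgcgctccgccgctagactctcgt
CCNB2, chr15:59104928-59104983, plus strand: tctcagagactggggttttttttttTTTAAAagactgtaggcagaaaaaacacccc
KIF23, chr15:69414113-69414168, plus strand: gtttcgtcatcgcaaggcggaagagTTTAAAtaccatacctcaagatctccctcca
The element was present in 31 of 39 listed promoters (79.5%), against 15.9% of the promoters of tested genes and 24.3% of all promoters. CCAAT, the NF-Y box that often lies beside it, was in 27 of 39 (69.2%) against 36.2% and 35.7%. Among the listed genes that fell, 18 of 21 promoters held the CHR letters (85.7%). Of the promoters of all tested genes called lower 15% held them, near the 15.9% of tested genes. The high share thus describes the list, and a link with the response was not tested. CCNB2, a B-type cyclin, fell by 0.58 and KIF23, a kinesin of the cytokinetic bridge, by 0.38, the latter lost in 2 of the 6 leave-outs. For the p53 targets the full p53 response element, searched by name, was in 0 of 30 promoters and in 8 of all 27305, and nothing is drawn from its absence in this window.

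**Figure D3:**
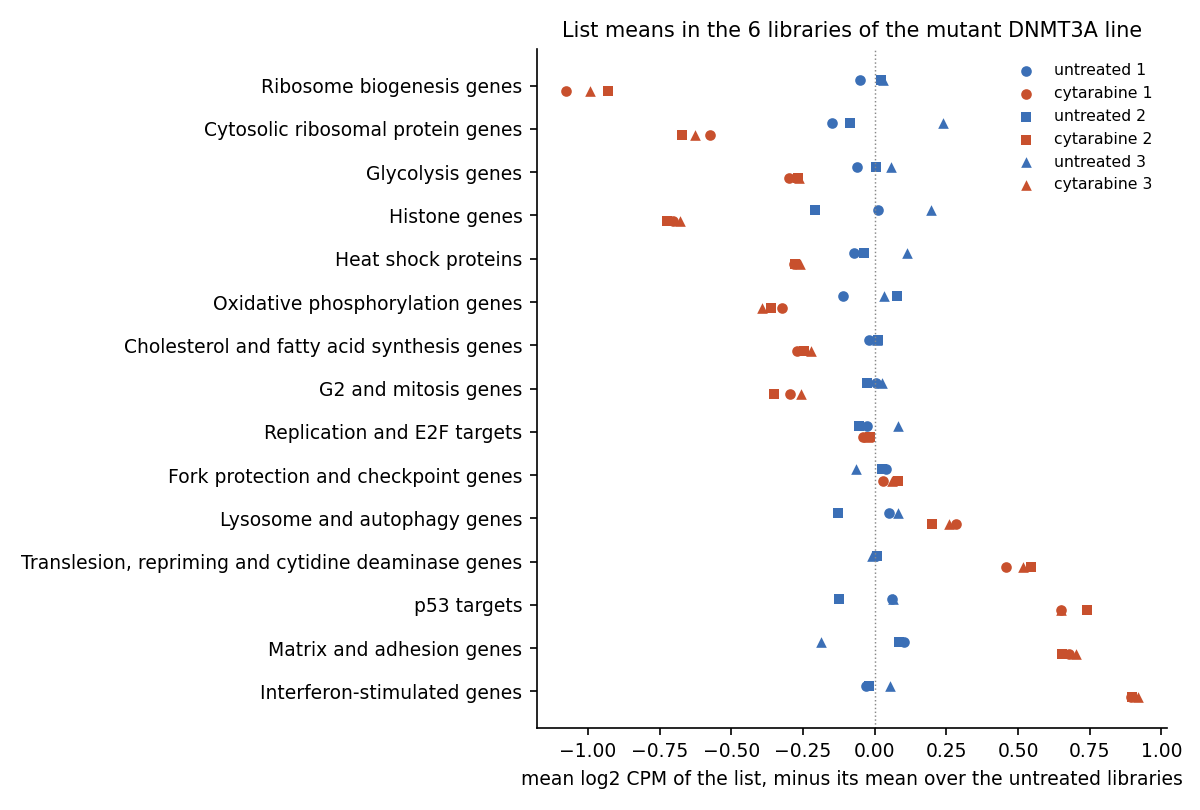
Mean log2 CPM of each gene list in the 6 libraries of the mutant line, minus the mean of the 3 untreated libraries (horizontal axis, log2 units). Untreated libraries are blue and treated ones red. The groups are apart for 13 of the 15 lists drawn and overlap for replication and for fork protection genes, and untreated replicate 3 is the highest library for ribosomal proteins and the lowest for matrix genes.

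Replication genes did not move as a block. Of 55 tested genes 7 were higher (12.7%) and 10 lower (18.2%), against 25.2% and 21.7% over all tested genes. The list median was -0.07. Licensing genes accounted for 6 of the lower ones. MCM5 and MCM7, subunits of the replicative helicase, fell from 239.9, 245.2 and 255.8 to 128.8, 125.4 and 131.1 CPM and from 1201, 1259 and 1278 to 671.3, 667.1 and 708.7 CPM, by 0.95 and 0.87 on the log2 scale, with no overlap of the groups. CCNE2, an E-type cyclin of the G1/S transition, went the other way, from 13.1, 9.18 and 11.3 CPM to 21.2, 25.8 and 22.9 CPM, and rose by 1.05. The replication polymerases and clamp genes were mostly under the threshold (2 higher, 1 lower of 18). RRM2, the S-phase subunit of ribonucleotide reductase, stood at 707.3, 734.3 and 839.5 CPM untreated and 865.2, 901.0 and 884.8 CPM treated. Its groups did not overlap, yet the change of 0.21 (SE 0.10) had an edgeR adjusted p of 0.11. Fork protection and checkpoint genes were split 9 higher (20%) to 8 lower (17.8%) of 45, both under the shares over all tested genes. The kinase ATM rose by 0.75, the Fanconi protein FANCI by 0.48 and the translocase HLTF by 0.70, while the checkpoint clamp subunit HUS1 fell by 0.84, TIPIN by 0.73 and the kinase CHEK1 by 0.47. Without treated replicate 1, 2 or 3 the replication list had 5, 4 and 4 lower genes and the fork list 6, 4 and 5 higher ones. Without untreated replicate 2 the replication list had 17 lower genes, and without untreated replicate 3 it had 11 higher and 15 lower.

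Of the 20 tested genes that handle cytarabine, 3 were higher (15%) and 10 lower (50%), against 25.2% and 21.7% over all tested genes. The list median was -0.21. The transporter SLC29A1, the main entry route of the drug, went from 147.9, 135.7 and 140.8 CPM to 100.9, 88.3 and 94.6 CPM and fell by 0.59. SAMHD1, which hydrolyses the active triphosphate, went from 62.8, 73.7 and 74.3 CPM to 124.2, 125.9 and 120.7 CPM and rose by 0.81 (SE 0.10, edgeR adjusted p 0.00027). CDA, the deaminase that inactivates the drug, was scarce, at 4.46, 4.53 and 6.22 CPM untreated and 9.27, 8.52 and 10.5 CPM treated, and rose by 0.89. In these 3 genes the groups were apart. DCK, the activating kinase, stood at 58.4, 44.2 and 64.6 CPM untreated and 72.1, 69.6 and 75.2 CPM treated. Its rise of 0.37 had an edgeR adjusted p of 0.047 and was past the threshold in 1 of the 6 leave-outs. Of the later kinases NME1 fell by 0.81, NME2 by 0.65 and CMPK1 by 0.34. Of the other inactivating enzymes DCTPP1 and NT5C each fell by 0.95, NT5C3A by 0.69 and DCTD by 0.65, and the efflux pump ABCC4 fell by 0.54. CMPK1 and NT5C3A each lost the call in 3 of the 6 leave-outs. Another 7 genes did not pass, among them the transporter SLC29A2 (-0.04) and the efflux pump ABCG2 (0.57).

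Regulators of NF-kB fell while several of the secreted products did not. Of 12 regulators 9 were lower and 1 higher, with a median of -0.90. NFKB1, the p105 and p50 subunit, went from 111.2, 120.3 and 110.1 CPM to 54.1, 60.8 and 56.8 CPM, the inhibitor NFKBIA from 51.1, 51.7 and 53.4 CPM to 24.3, 20.7 and 19.9 CPM, and the adaptor TRAF1 from 28.8, 36.7 and 32.1 CPM to 8.04, 9.62 and 8.72 CPM. These were falls of 1.00, 1.27 and 1.89 on the log2 scale, with no overlap of the groups. The exception was NFKBIZ, at 0.89. Of 16 cytokines and chemokines 5 rose (31.2%) and 4 fell (25%), near the 25.2% and 21.7% over all tested genes. The lower count of these genes ran from 2 (without treated replicate 3 or untreated replicate 1) to 6 (without untreated replicate 2). Their mean was 2.18, 1.38 and 2.31 log2 CPM untreated and 2.33, 2.45 and 2.28 treated, with untreated replicate 2 far below the others. IL1A, an alarmin, went from 0.251, 0.440 and 0.228 CPM to 3.65, 3.64 and 3.66 CPM and rose by 3.56, whereas IL6 overlapped between the groups. The growth factor AREG, a ligand of the EGF receptor, went from 9.33, 5.28 and 9.94 CPM to 30.4, 35.7 and 31.1 CPM and rose by 1.97, its relative EREG rose by 1.51, and the collagenase MMP13 by 2.05. MMP10 fell by 1.85. The immediate early genes had 3 higher (11.1%) and 10 lower (37%) of 27, including SRF (-0.90) and FOSL1 (-0.89), and EGR1 overlapped between the groups. Without treated replicate 1 or 3, 5 of the immediate early genes were lower.

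Of 31 apoptosis genes of the BCL2 and caspase families 8 were higher (25.8%) and 7 lower (22.6%), close to the 25.2% and 21.7% over all tested genes. The initiator caspase CASP10 went from 1.605, 1.07 and 0.685 CPM to 7.997, 7.37 and 8.15 CPM and rose by 2.78, the BH3-only gene BMF rose by 1.51 and the apoptosome scaffold APAF1 by 0.96. Cytochrome c, CYCS, went from 504.1, 462.3 and 565.8 CPM to 232.3, 242.9 and 233.6 CPM and fell by 1.12, and DIABLO fell by 0.75. The groups were apart in CASP10 and CYCS. Without untreated replicate 1, 4 genes of the list were higher, and without treated replicate 1 or 2, 5 were.

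Genes of the extracellular matrix and its receptors rose together. Of 50 tested genes 32 were higher and 3 lower, with a median of 0.68. Of 17 collagens 14 rose. COL11A1, a fibril-forming collagen of cartilage (chromosome 1, 102876467 to 103108873, minus strand), went from 14.9, 13.6 and 11.8 CPM to 58.1, 52.96 and 58.1 CPM, a log2 fold change of 2.06. COL1A1, the main bone collagen chain, went from 184.4, 173.5 and 138.7 CPM to 294.1, 237.0 and 283.3 CPM and rose by 0.71. The groups did not overlap in either gene. Of 14 integrins 9 rose, ITGB4 from 8.37, 8.43 and 6.22 CPM to 31.5, 24.8 and 30.3 CPM. Fibrillin-1, FBN1, rose by 1.75 and the laminin LAMA5 by 1.37. THBS1, an adhesive matrix glycoprotein (chromosome 15, 39581079 to 39599467, plus strand), went against the list, from 831.2, 1152 and 680.6 CPM to 306.1, 322.3 and 296.5 CPM, a fall of 1.53, and the laminin LAMB3 fell by 0.27, a call kept in 3 of the 6 leave-outs. Fibronectin, FN1, stood at 435.7, 461.4 and 250.02 CPM untreated and 457.9, 411.6 and 416.0 CPM treated, with overlapping groups. The list mean was 5.22, 5.20 and 4.93 log2 CPM untreated, so untreated replicate 3 was the lowest library. Without it 31 genes were higher with a median of 0.55. The integrin count was 5 without treated replicate 3.

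Many genes of glycolysis, respiration and sterol synthesis were lower, as were many abundant genes of any kind. Of all tested genes 21.7% were lower. In the most abundant of 5 equal bins of genes averaging at least 1 log2 CPM, 48.8% were lower and 9.1% higher. Of 22 glycolysis genes 13 fell (59.1%) and 3 rose (13.6%), with a median of -0.55. ENO1, the common enolase (chromosome 1, 8861000 to 8879251, minus strand), went from 3224, 4183 and 4029 CPM to 1645, 1614 and 1626 CPM and fell by 1.23, while the neuronal isoform ENO2 went from 61.4, 46.5 and 52.7 CPM to 127.3, 128.6 and 132.8 CPM and rose by 1.27. The lactate exporter SLC16A3 rose by 1.37. The groups were apart in ENO1 and ENO2. Of 43 respiratory chain genes 21 fell (48.8%) and none rose, with a median of -0.46. Those that fell were 18 of 30 nuclear and 3 of 13 mitochondrial genes. The mitochondrial genes averaged 10.3, 11.2 and 9.999 log2 CPM untreated and 10.4, 10.3 and 10.1 treated, so the groups overlapped and untreated replicate 2 stood above the rest. Their lower count was 0 without any one treated library, 6 without untreated replicate 1, 5 without untreated replicate 3 and 0 with the length trend removed. Without treated replicate 1, 2 or 3 the count over all 43 was 12, 11 and 12, and with the length trend removed the median was -0.27. Of 33 sterol and fatty acid genes 15 fell (45.5%) and 4 rose (12.1%), with HMGCS1 of the mevalonate pathway at -0.81. Commonly used reference genes are given for scale. Of 20 tested, 12 fell (60%) and 1 rose (5%), with a median of -0.49, ACTB at -0.95 and GAPDH at -0.79.

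The stress pathways of protein synthesis did not rise together. The integrated stress, heat shock and endoplasmic reticulum lists averaged 6.90, 8.20 and 7.05 log2 CPM untreated. Over all tested genes 21.7% fell and 25.2% rose. In the most abundant of 5 equal bins of genes averaging at least 1 log2 CPM, 48.8% fell and 9.1% rose. Of 41 genes of the integrated stress response 16 fell (39%) and 6 rose (14.6%). ATF4, its central transcription factor, went from 640.2, 546.7 and 719.3 CPM to 438.9, 447.8 and 443.6 CPM and fell by 0.52. SLC7A5, the large neutral amino acid transporter (chromosome 16, 87830023 to 87869489, minus strand), went from 637.1, 747.8 and 585.3 CPM to 246.0, 279.3 and 271.5 CPM, a fall of 1.31. The treated libraries lay under all untreated ones in both. Of 12 tRNA synthetases 8 fell and 1, AARS, rose by 0.32, a call kept in 1 of the 6 leave-outs. DDIT3 (CHOP) overlapped between the groups. Of 21 genes of heat shock proteins, their cochaperones and regulators 12 fell (57.1%) and 3 rose (14.3%), with the cytosolic chaperone HSP90AB1 at -0.92. The list also holds the mitochondrial chaperonin pair HSPD1 (-0.83) and HSPE1 (-1.06). Of 20 genes of the endoplasmic reticulum 6 rose (30%) and 2 fell (10%), the largest being EDEM1 (0.79). That count of 6 ranged from 1 without treated replicate 3 to 10 without untreated replicate 3.

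Histone genes were mostly lower, while most genes of DNA methylation and Polycomb did not pass the threshold. Of 26 tested histone genes 16 fell and none rose, 8 of 15 clustered and 8 of 11 variant genes. HIST1H2AC (-1.98) and HIST1H1C (-1.72) followed HIST1H2BK, and the variant H3F3B fell by 0.91. Most clustered histone messages lack a poly(A) tail, and the labels do not state how messenger RNA was selected. Without treated replicate 2, 10 histone genes were lower. Of 16 genes of DNA methylation 4 rose (25%) and 3 fell (18.8%), close to the 25.2% and 21.7% over all tested genes. The higher ones were DNMT3B (0.30), HELLS (0.32), the demethylase TET1 (0.95) and ZBTB33 (0.31). The lower ones were the readers MBD2 (-1.09) and MBD3 (-0.83) and the glycosylase TDG (-0.36). Of the called genes TET1, MBD2 and MBD3 kept their call in all 6 leave-outs. Without untreated replicate 3 the list had 2 higher and 8 lower genes. DNMT1 gave -0.20 and did not pass. Of 29 Polycomb genes 7 fell (24.1%) and 2 rose (6.9%), with PHF19 at -0.90 and CBX7 at 0.80. Without treated replicate 1, 2 or 3 the Polycomb list had 4, 2 and 3 lower genes.

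Cytidine deaminase genes rose, and genes for lesion bypass did so in part. Of 21 tested genes 11 rose and 1 fell, with a median of 0.50, and 7 rose without treated replicate 2. Of the 16 for translesion synthesis and repriming 6 rose (37.5%) and 1 fell (6.25%), against 25.2% and 21.7% over all tested genes. All 5 tested APOBEC3 genes, deaminases of cytidine in single-stranded DNA, were among the 11, and 3 of them were without treated replicate 2 or untreated replicate 1. APOBEC3C (chromosome 22, 39014083 to 39020353, plus strand) went from 41.9, 53.6 and 43.97 CPM to 99.96, 104.5 and 98.1 CPM and rose by 1.11 (SE 0.11, edgeR adjusted p 0.00013). APOBEC3B went from 42.2, 36.9 and 45.8 CPM to 66.1, 63.9 and 64.4 CPM and rose by 0.63. The groups were apart in both. The scarcer APOBEC3D (1.20), APOBEC3F (0.81) and APOBEC3H (2.52) also passed, the first 2 in 3 of the 6 leave-outs. The members lie side by side and share sequence, so reads could be split between them. Of the bypass polymerases POLQ rose by 0.74 and POLH by 0.68.

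The peptidylarginine deiminases, which convert arginine to citrulline, held some of the steepest rises. PADI4 (chromosome 1, 17308195 to 17364005, plus strand), the family member known for histone citrullination in granulocytes, went from 0.802, 0.881 and 0.571 CPM to 20.04, 17.7 and 17.6 CPM, a log2 fold change of 4.60 (SE 0.19, edgeR adjusted p 1.1e-05). Its neighbour PADI3 went from 0.351, 0.377 and 0.343 CPM to 6.28, 4.12 and 5.36 CPM and rose by 3.85, and PADI1 rose by 2.03. The treated libraries lay far above the untreated ones in PADI4 and PADI3. Of the gelsolin family of actin-severing proteins, SCIN (2.29), GSN (1.44) and CAPG (0.98) rose and FLII fell by 0.50. AVIL gave 0.41 and did not pass.

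The response also followed gene length and abundance. Over 12978 tested genes with an exonic length and a mean log2 CPM of at least 1, the median log2 fold change was -0.28, -0.08, 0.00, 0.08 and 0.15 from the shortest to the longest of 5 bins of equal size. The same bins gave -0.30, -0.15, -0.03, 0.06 and 0.21 for untreated replicate 2 minus untreated replicate 3, which are libraries of 1 group. Without untreated replicate 3 the response medians were -0.21, -0.05, -0.01, 0.04 and 0.05. Spearman's rho across these genes, which share their libraries, was 0.25 between length and the response, 0.38 between length and the difference of untreated replicates 2 and 3, and -0.02 between length and treated replicate 1 minus 3. In the other lines it was 0.08 (empty vector) and 0.14 (wild type). By abundance the medians ran from 0.33 in the lowest of 5 bins to -0.30 in the highest, where 48.8% of the genes were lower and 9.1% higher. Untreated replicate 1 minus 2 ran the same way, from 0.05 to -0.07. With the length trend taken out, the ribosome biogenesis list kept a median of -1.04, ribosomal proteins -0.65, p53 targets 0.38, interferon-stimulated genes 0.55 and matrix genes 0.52.

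**Figure D4:**
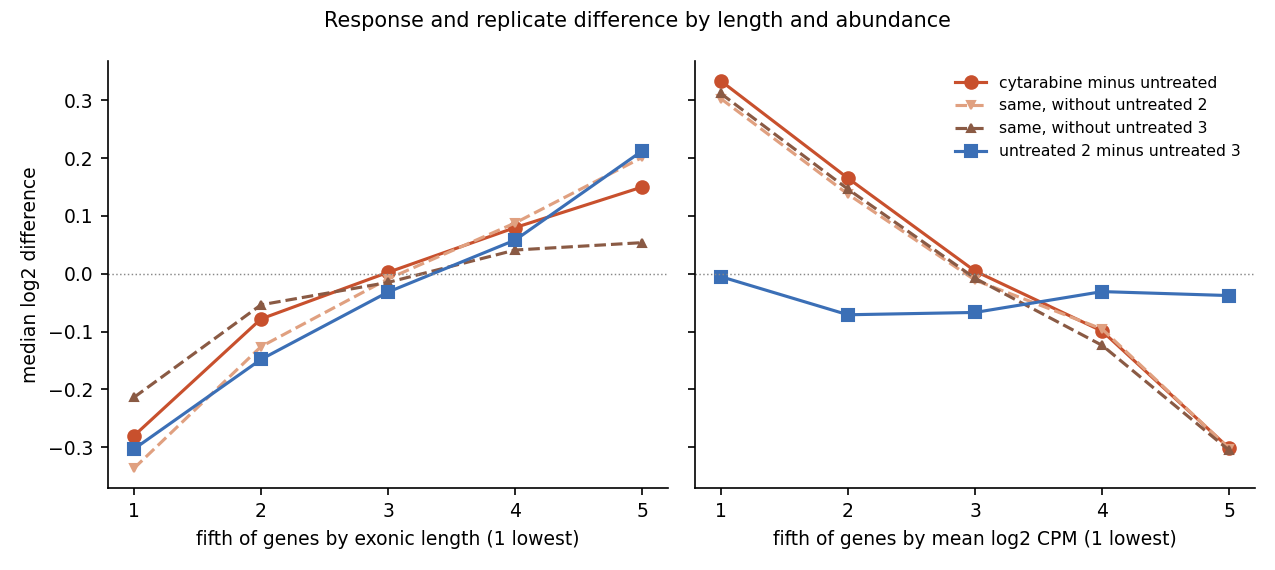
Median log2 difference (vertical axis) in 5 equal bins of genes by exonic length and by mean log2 CPM, for the cytarabine response of the mutant line, for the response without untreated replicate 2 or 3, and for untreated replicate 2 minus 3. The length trend of the response, from -0.28 to 0.15, narrows to -0.21 to 0.05 without untreated replicate 3, and the trend with abundance, from 0.33 to -0.30, is not seen in untreated replicate 2 minus 3, which stays between -0.07 and 0.00.

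Whether the response differed between lines was tested as the difference between the responses of the mutant line and of each other line, over all 18 libraries. The lines also differed in DNMT3A level, so neither the construct nor its level can be told apart from other differences between them. How many genes differed varied with the libraries and the tool. Against the empty vector 39 of 18226 genes passed (0.214%), 28 with a more positive response in the mutant line (0.154%) and 11 with a more negative one (0.0604%). Against the wild type 183 passed (1%), 93 positive (0.51%) and 90 negative (0.494%). With DESeq2 size factors in edgeR the counts were 26 positive and 28 negative against the empty vector and 81 positive and 197 negative against the wild type. DESeq2 itself gave 185 positive and 369 negative against the empty vector and 181 and 622 against the wild type. Without untreated mutant replicate 1 edgeR gave 276 and 390 against the empty vector and 312 and 498 against the wild type, without replicate 2 131 and 204 and then 196 and 478, and without replicate 3 54 and 47 and then 115 and 222. Of the 39 genes 5 passed whichever single library was left out, and of the 183 genes 34 did. With only the 12 libraries of the lines compared, 1 and 51 genes passed. Both differences use the same mutant libraries. The list medians of the 3 lines lay on the same side of 0 except for the replication and fork protection lists among the 15 drawn. Ribosome biogenesis had medians of -0.90 (empty vector), -0.83 (wild type) and -1.05 (mutant) with 40 genes lower in each line. Of its genes 0 passed the test of the difference from the empty vector and 2 that from the wild type. Against the wild type 5 of 22 glycolysis, 4 of 33 sterol and fatty acid and 4 of 50 matrix genes passed, and against the empty vector 0 of each list. The p53, interferon-stimulated and ribosomal protein lists had 0 in both tests.

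**Figure D5:**
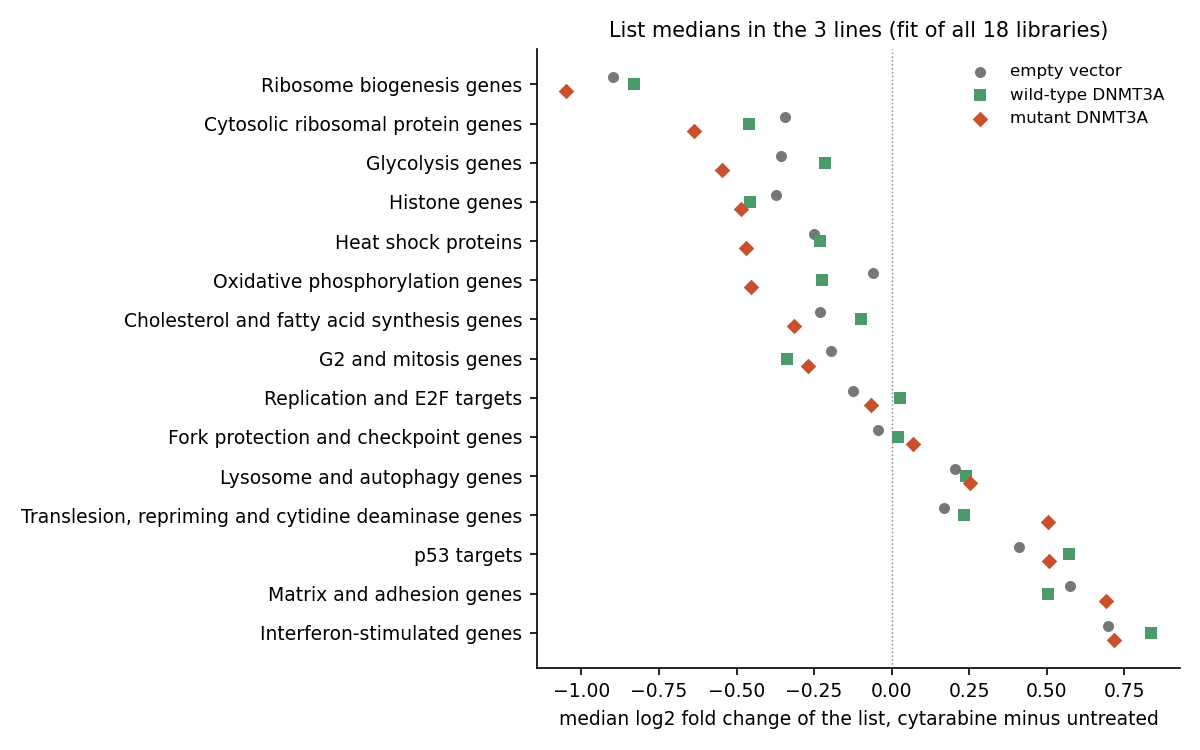
Median log2 fold change (cytarabine minus untreated, horizontal axis) of 15 gene lists in the empty vector, wild-type and mutant DNMT3A lines, from the fit of all 18 libraries. In each line ribosome biogenesis has the lowest median drawn and the interferon-stimulated list the highest, while lists between them change order. The ribosome biogenesis median is lowest in the mutant line (-1.05 against -0.90 and -0.83). Those of oxidative phosphorylation lie farther apart, at -0.06 (empty vector), -0.22 (wild type) and -0.45 (mutant). These differences of medians were not tested.

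Among the 12 genes that passed both differences in the same direction, 9 were more positive in the mutant line. The differences below are on the log2 scale, from edgeR with adjusted p. CAVIN2, a component of caveolae, rose from 27.1 ± 1.21 to 57.7 ± 3.16 CPM (SD, n = 3) in the mutant line, from 36.0 ± 0.967 to 45.2 ± 2.73 CPM with the empty vector and from 38.05 ± 0.207 to 60.9 ± 2.23 CPM with the wild type. The differences were 0.77 (SE 0.09, edgeR adjusted p 0.0011) and 0.42 (SE 0.09, edgeR adjusted p 0.036), the first called in 12 of 12 leave-outs and the second in 3 of 12. TNFRSF11B, the decoy receptor osteoprotegerin made by osteoblasts, went from 53.3 ± 6.82 to 64.9 ± 3.98 CPM in the mutant line, where it passed the test in the fit of all 18 libraries (edgeR adjusted p 0.0078) and not in that of the 6 (edgeR adjusted p 0.067). It fell from 30.6 ± 1.67 to 22.1 ± 1.29 CPM with the empty vector and from 34.6 ± 1.35 to 25.7 ± 1.43 CPM with the wild type. IDH1, the cytosolic isocitrate dehydrogenase, stood at 57.6 ± 2.58 and 57.3 ± 0.861 CPM in the mutant line and rose from 54.0 ± 0.148 to 76.0 ± 4.63 CPM and from 48.6 ± 1.11 to 68.1 ± 5.77 CPM in the others. CD82, a tetraspanin and p53-responsive metastasis suppressor, rose less in the mutant line, from 49.5 ± 3.45 to 73.4 ± 4.96 CPM, than with the wild type, from 30.9 ± 0.787 to 114.3 ± 2.37 CPM. The difference of -1.32 against the wild type (SE 0.11, edgeR adjusted p 2.2e-06) was called under all alternatives run, while that of -0.56 against the empty vector (edgeR adjusted p 0.038) was lost in 8 of the 12 leave-outs.

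Against the empty vector alone, DDR2, a collagen receptor tyrosine kinase (chromosome 1, 162631373 to 162787401, plus strand), had a difference of 1.55 (SE 0.17, edgeR adjusted p 0.00055), which was called under all alternatives run. It rose from 4.08 ± 0.173 to 17.6 ± 1.72 CPM in the mutant line and from 28.3 ± 3.36 to 41.9 ± 5.21 CPM with the empty vector, both levels being lower in the mutant line. RRAD, a small GTPase, had the most negative difference of the named genes, -1.76 (edgeR adjusted p 0.0044). It stood at 8.28 ± 1.97 and 7.38 ± 0.277 CPM in the mutant line and rose from 1.67 ± 0.234 to 5.05 ± 0.669 CPM with the empty vector. Against the wild type, SEMA3A, a secreted guidance protein, differed by 1.55 (edgeR adjusted p 0.0029), TXNIP, an inhibitor of thioredoxin, by 1.31 (edgeR adjusted p 0.0022) and the complement protease C1S by -1.73 (edgeR adjusted p 0.0059). C1S rose in both lines, from 2.47 ± 0.362 to 10.9 ± 0.385 CPM in the mutant line and from 1.16 ± 0.251 to 16.9 ± 2.42 CPM with the wild type. GDF15, the largest rise of the mutant line, differed by 0.86 from the empty vector (edgeR adjusted p 0.055) and by -0.33 from the wild type (edgeR adjusted p 0.42), neither past the threshold.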

How the data were processed

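Libraries were made with the NEBNext Ultra kit from RNA purified by Direct-zol columns, per the labels' protocols. STAR 2.6.1d, CASAVA and the build hg38 are named in the submitters' processing notes; the counting tool and its handling of strand are not given in the sources used here. The authors deposited estimated counts per gene symbol, not normalized (25296 genes, each with at least 10 counts in all, 70.4% of values whole). Their second deposited table holds a normalized signal, covering 19591 genes, in which the estimated count is scaled by a single factor per library and 1 is added, and was used only for its factors. The authors' table gives the coordinates. Of 19417 genes matched to GENCODE 44 by symbol, 99.99% overlapped the position given there, and a length was at hand for 90.0% of the tested genes.

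The rounded counts were tested in edgeR 4.0.16, under R 4.3.3 (filterByExpr, TMM, quasi-likelihood F test, Benjamini-Hochberg adjustment over all tested genes, threshold 0.05). The 6 mutant-line libraries gave the response and all 18 libraries the differences of response. SE is the absolute log2 fold change over the square root of F, and 2 was the prior count for log2 CPM. The CPM values carry the TMM factors of all 18 libraries. The labels call the replicates biological triplicates of plated cells, and p-values measure the spread between these samples. Replicates differed beyond sampling noise (chi-square per degree of freedom 4.14 to 48.3), so each counted separately. Tested on simulated data, the response fit (16954 genes) recovered 87% of changes of 1 and 100% of changes of 2 on the log2 scale. The fit of the difference recovered 76% and 100% against the empty vector (18010 genes) and 72% and 99% against the wild type (17993 genes). Each size of change was given to 100 genes, and false calls numbered 14, 9 and 11 in that order of fits. These rates hold for the genes changed in the simulation and are not the power of the real fits. Recovery may differ for scarce genes and for groups of unequal spread. In the mutant line the biological coefficient of variation was 21.4% untreated and 6.91% treated.

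Members and lists were chosen with earlier results of these data known, so no list is independent support. Named genes were the 12 largest rises and 12 largest falls past the threshold averaging 3 log2 CPM or more, without overlap, up to 4 called members of a list in its main direction and 2 in the other averaging 1 log2 CPM or more, the 5 largest differences of response in each direction, the genes past both differences, and a fixed set. Further list members were chosen after their values were seen. Symbols turned into dates in the table are not named. Results for some genes are not reported here. Alternatives were RLE and the authors' factors, DESeq2 1.42.0, limma 3.58.1 voom with quality weights, other count filters, a fold threshold, a replicate block, leaving out each library, other sets of libraries, and, added after seeing the data, a length trend removed by lowess and the E-box search.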

Additional observations from a re-analysis of the deposited data

Results flagged for a closer look

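The response to cytarabine differed between the mutant line and the empty vector at 39 genes and between the mutant line and the wild type at 183 genes, by the edgeR test of the difference itself. The named genes among them follow, with the difference of the log2 fold changes. Positive values mean a more positive response in the mutant line.

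The genes past both tests were CAVIN2 (0.77 against the empty vector and 0.42 against the wild type), PDE5A (0.88 and 0.85), TNFRSF11B (0.75 and 0.71), PER3 (0.95 and 0.72), GOLGA8IP (1.65 and 1.20), ERBIN (0.49 and 0.53), CHML (0.44 and 0.43), PKP2 (0.57 and 0.42), ZFP36L1 (0.40 and 0.37), TMEM126A (-0.87 and -0.88), CD82 (-0.56 and -1.32) and IDH1 (-0.50 and -0.50). PDE5A is the phosphodiesterase of cyclic GMP, PER3 a clock gene, PKP2 a desmosomal plakophilin and ZFP36L1 an RNA decay factor. None of these genes passed both tests in every leave-out. Against the empty vector CAVIN2 and GOLGA8IP passed in all 12, and against the wild type TNFRSF11B, ERBIN, TMEM126A and CD82 did. The fewest were 3 of 12 against the empty vector (ZFP36L1) and 2 of 12 against the wild type (PER3 and PKP2). GOLGA8IP is a pseudogene of a multicopy family, so its reads could belong to relatives.

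Against the empty vector, MMP13 (1.69), DDR2 (1.55) and the kinase RPS6KA6 (1.19) had a more positive response in the mutant line. RRAD (-1.76), C2orf76 (-1.29), HIST1H2BK (-1.22) and AAMDC (-0.99) had a more negative one. MMP13 and DDR2 are a collagenase and a collagen receptor. The call against the empty vector held in all 12 leave-outs for DDR2 and RRAD. It held in 6 for AAMDC, 5 for HIST1H2BK, 4 each for MMP13 and C2orf76 and 3 for RPS6KA6.

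Against the wild type, SEMA3A (1.55), the transcription factor ATOH8 (1.44), the pseudogene ANKRD20A8P (1.43), NCKAP5 (1.36) and TXNIP (1.31) had a more positive response. C1S (-1.73), the endothelial proteoglycan ESM1 (-1.50), the imprinted RNA H19 (-1.34) and AP001972.5 (-1.24) had a more negative one. The call against the wild type held in all 12 leave-outs for SEMA3A, TXNIP and C1S. It held in 11 for AP001972.5, 7 for ESM1, 5 each for ATOH8, ANKRD20A8P and NCKAP5 and 3 for H19. ESM1 stood at 3.88 ± 1.70 and 4.25 ± 0.539 CPM in the mutant line (SD, n = 3) and rose from 13.2 ± 1.49 to 40.7 ± 5.995 CPM with the wild type.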

How the results depend on the processing

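For the cytarabine response in the mutant line, the count of genes stayed within 1.5 times of 7976 under every alternative run except the fold threshold, which left 2483 genes (1952 higher and 531 lower). The authors' factors gave 3699 higher and 4268 lower, and the length trend removed 3727 and 4219. Deviations from the group mean of same-numbered treated and untreated libraries had r of -0.04, 0.08 and 0.37. Treated replicate 1 with untreated replicate 2 gave 0.31, so the numbers are not taken to pair cultures. With the replicate block the response had 4290 higher and 3707 lower genes, and the difference from the empty vector 25.

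The differences of response moved more. For the difference of response, mutant minus empty vector (39 genes), DESeq2 gave 554, voom with quality weights 132, a mean of at least 50 counts 128, a fold threshold 10 and the 12 libraries of both lines 1. Leaving out 1 library gave 8 to 666, the highest without untreated mutant replicate 1. For the difference of response, mutant minus wild type (183 genes), RLE gave 278, DESeq2 803, voom 350, at least 50 counts 375, the fold threshold 30 and the 12 libraries 51, and leaving out 1 library gave 38 to 810, again highest without that replicate. The causes were not tested.

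Among single genes, DNMT3A, response in the mutant line, ran from -0.12 (without untreated replicate 3, edgeR adjusted p 0.34) to 0.46 (without untreated replicate 2) when 1 library was left out. Values for 491 gene and setting pairs lost their call and 4, all of RRM2, gained one. On simulated data 87% of response changes of 1 on the log2 scale were recovered, and smaller changes were not simulated.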

Other observations

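Lysosome and autophagy genes were mixed in the mutant line. Of 30 tested genes 10 rose (33.3%) and 4 fell (13.3%) at an edgeR adjusted p under 0.05, against 25.2% and 21.7% of all tested genes, with a median of 0.25 against 0.03. The autophagy protein GABARAPL1 went from 49.998, 41.5 and 46.0 CPM to 86.5, 83.7 and 85.1 CPM and rose by 0.88, and TFEB, a transcription factor of lysosome genes, went from 4.41, 4.53 and 5.31 CPM to 9.62, 9.05 and 8.67 CPM and rose by 0.93. The groups did not overlap in either gene. The higher count of this list was 6 without treated replicate 1, 2 or 3.

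Germline genes that are commonly silenced by DNA methylation did not move together. Of 23 tested genes 3 rose (13%) and 5 fell (21.7%), against 25.2% and 21.7% over all tested genes. The piRNA pathway gene PIWIL2 went from 0.702, 0.503 and 0.514 CPM to 4.13, 3.73 and 3.44 CPM and rose by 2.69, and the kinase-domain gene STK31 rose by 2.05. MAGEA4, a cancer-testis antigen, went from 647.2, 567.3 and 779.3 CPM to 336.4, 367.2 and 365.4 CPM and fell by 0.91. Without untreated replicate 2, 8 of these genes were lower. Long intergenic noncoding RNAs had 187 higher (26.1%) and 54 lower genes (7.54%) of 716 tested, with a median of 0.29. Over all tested genes the shares were 25.2% and 21.7%. In the scarcest of 5 equal bins of genes averaging at least 1 log2 CPM they were 34.3% and 7.35%, with a median of 0.33.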
